A study of Mus musculus with 4 samples.

Results

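Oxidative phosphorylation genes were followed in mouse embryonic fibroblasts across oxygen level and genotype. Members were the genes whose platform symbol begins with Nduf, Uqcr, Sdha, Sdhb, Sdhc, Sdhd, Cox4 to Cox8 or Atp5 and whose signal reached 500 on at least 1 array, with the brightest probe set standing for each gene. Of 87 genes with such a symbol on the array, 77 reached 500, out of 12393 named genes of which 4645 reached 500. The 77 members comprised 33 subunits of complex I, 4 of complex II, 8 of complex III, 9 of complex IV and 17 of complex V, and 6 further genes that share the prefixes and are assembly or associated factors (Ndufaf1, Ndufaf3, Ndufaf4, Sdhaf2, Sdhaf4 and Cox7a2l). The signals that lay closest above the limit were those of Ndufaf3 (highest array 502.6), Ndufaf4 (571) and Ndufaf1 (579), and those closest below it were Ndufb1 (489.7) and Ndufaf5 (438).

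Complexes I to IV of the inner mitochondrial membrane pass electrons from NADH and succinate to oxygen, and complexes I, III and IV use the energy to pump protons. Complex V, the ATP synthase, lets the protons flow back and makes ATP. Most subunits are encoded in the nucleus and imported, the mitochondrial genome encodes a few core subunits, and a few nuclear subunits, of complex IV above all, exist as isoforms that differ between tissues or with oxygen supply. In hypoxia, HIF-1, the oxygen-regulated transcription factor, is known to switch complex IV from Cox4i1 towards Cox4i2 in some cell types and to raise genes that restrain respiration.

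The cells were primary fibroblasts prepared from e14.5 embryos (embryonic day) and hybridised on 4 Affymetrix arrays, 1 per group. The groups were tri-CH1 cells at 0.1% oxygen (hypoxia), tri-CH1 cells at 21% oxygen (normoxia), wild-type cells at 0.1% oxygen and wild-type cells at 21% oxygen, each subconfluent, for 6 h with 5% CO2 at 37 °C in medium pre-equilibrated to the same oxygen level. In the tri-CH1 genotype the CH1 domain, a region of the coactivators p300 and CBP that binds HIF-1α among other factors, is deleted from both p300 alleles and from 1 CBP allele, so 1 CBP allele keeps it. The labels do not say how many embryos or cell preparations stand behind each array. No difference has a replicate check, and no p-value was computed.

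Signals are the authors' background-corrected intensities, scaled on each array to a target of 500. Between 6066 and 6328 probe sets reached 500 on each array, but the scale factors ran from 3.46 (wild-type normoxia) to 10.3 (tri-CH1 normoxia), and the array of wild-type cells in normoxia was of a different lot from the other 3. All 10 fibroblast markers reached 500, 0 of 10 muscle, 0 of 6 endothelial and 0 of 4 hepatocyte markers did, and 3 of 6 epithelial, 2 of 8 blood and macrophage (Csf1r and Lyz2) and 1 of 5 neural markers (Nes) did. The epithelial markers Epcam and Cdh1 were under 200 on all arrays. The summed epithelial signal moved with oxygen, at 3424.5 in tri-CH1 hypoxia against 1358 in tri-CH1 normoxia, and 4923 in wild-type hypoxia against 1137 in wild-type normoxia. Of this, Krt19 had 2675.5 in tri-CH1 hypoxia, 423 in tri-CH1 normoxia, 3881 in wild-type hypoxia and 145 in wild-type normoxia. Krt8 ran the other way, with 192 in tri-CH1 hypoxia, 502 in tri-CH1 normoxia, 332 in wild-type hypoxia and 398 in wild-type normoxia. Krt18 was higher in hypoxia by 0.18 in tri-CH1 and 0.47 in wild-type cells on the log2 scale. The rise of the sum thus follows Krt19 and is not shared by all epithelial markers. The part of these markers in the values below was not tested. In such bulk RNA, fewer cells of a type and less of an RNA per cell cannot be told apart. The Crebbp probe set was under 200 on all 4 arrays and does not check the genotype. Bnip3, a mitophagy receptor and HIF-1 target, had 10422 in tri-CH1 hypoxia, 493.5 in tri-CH1 normoxia, 10529.6 in wild-type hypoxia and 402.5 in wild-type normoxia, which placed both hypoxia arrays far above both normoxia arrays.

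Hypoxia changes of the members were small, and in each genotype taken alone most of them lay below 0. In tri-CH1 cells, 50 of 77 members were lower in hypoxia than in normoxia, with a median log2 change of -0.093, where 53.5% of the 4645 genes were below 0 and their median was -0.033. In wild-type cells, 56 of 77 were lower, with a median of -0.11, against 56.7% of all genes and a median of -0.053. The counts turn on how the arrays are scaled: with every array brought to the same median signal they were 42 of 77 in tri-CH1 and 67 of 77 in wild-type cells. The member changes were also narrower than those of all genes, with an SD over genes of 0.26 in tri-CH1 and 0.21 in wild-type cells, against 0.49 in both for all genes. Members were brighter too: 71 of 77 reached 1000 on an array, against 2478 of the 4645 genes. The part of brightness in this spread, and in the shares past a fold limit, was not tested.

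At 2-fold, 0 of 77 members were higher and 0 were lower in tri-CH1 hypoxia, where 3.19% of all genes counted were higher and 0.987% lower. In wild-type cells 0 of 76 counted members were higher and 0 lower, where 3.05% and 1.19% of genes were. A gene was counted where the brighter of its 2 arrays reached 500. At 1.5-fold, 0 members were higher and 2 were lower in tri-CH1 hypoxia, against 8.56% of genes higher and 6.36% lower. In wild-type hypoxia 0 members were higher and 3 lower at that limit, against 6.91% and 6.81% of genes. The 2 genes in tri-CH1 cells were the factors Sdhaf4 and Ndufaf4, and the 3 in wild-type cells were the subunits Atp5g1, Atp5md and Ndufb10.

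**Figure D1:**
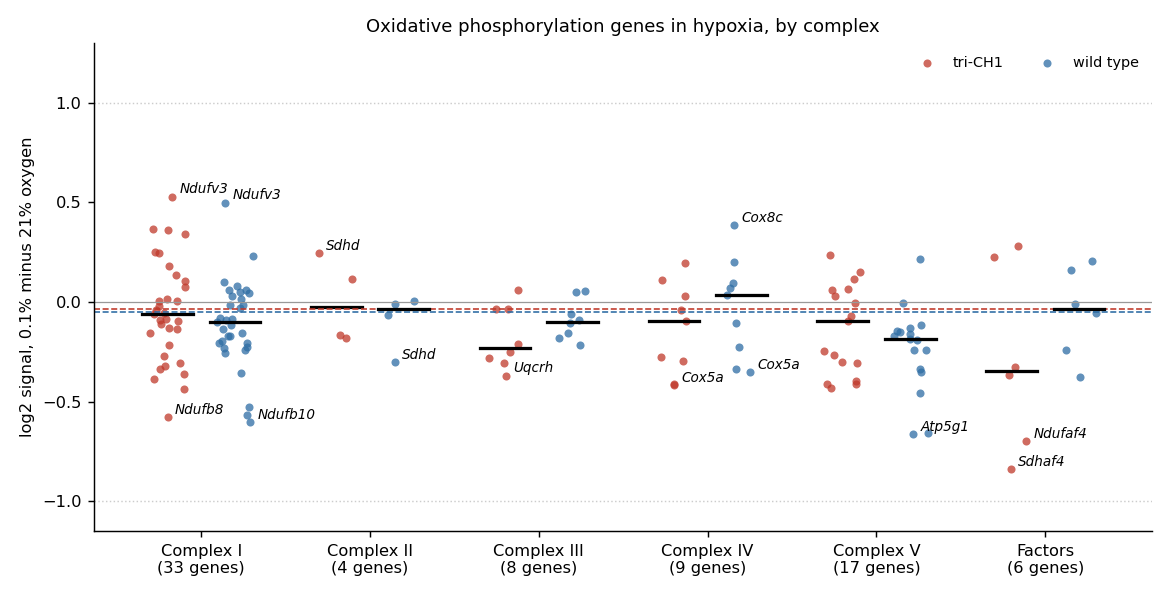
Each point is 1 of the 77 genes, placed by complex along the x axis and by its log2 change, hypoxia minus normoxia, on the y axis, with tri-CH1 left of wild type and a bar at the median of each set. Dashed lines give the median of all genes in each genotype and dotted lines mark 2-fold. All points lie between the dotted lines, Ndufv3 is the highest in both genotypes, and the complex V points in wild-type cells lie below 0 in 16 of 17 cases.

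Promoter sequence is shown for the genes the results turn on: Ndufv3, highest in hypoxia in both genotypes, Cox5a, lower in both by every probe set, and Ndufs5 and Atp5g1, whose changes differed most between the genotypes. Each is the 150 bases before the gene's start in RefSeq (GRCm38.p6), read 5′ to 3′ on the gene's strand: chr17:31519965-31520114 (+) for Ndufv3, chr9:57521082-57521231 (+) for Cox5a, chr4:123718187-123718336 (-) for Ndufs5 and chr11:96075632-96075781 (-) for Atp5g1. Capitals mark the letters ACGTG or GCGTG, the core that HIF binds, and CCAAT, on either strand.
Ndufv3: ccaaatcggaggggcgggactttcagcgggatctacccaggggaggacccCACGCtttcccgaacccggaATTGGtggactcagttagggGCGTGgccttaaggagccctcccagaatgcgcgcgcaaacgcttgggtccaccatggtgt
Cox5a: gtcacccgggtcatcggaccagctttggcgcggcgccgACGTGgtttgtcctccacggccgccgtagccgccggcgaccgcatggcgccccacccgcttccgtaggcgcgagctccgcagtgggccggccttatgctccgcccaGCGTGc
Ndufs5: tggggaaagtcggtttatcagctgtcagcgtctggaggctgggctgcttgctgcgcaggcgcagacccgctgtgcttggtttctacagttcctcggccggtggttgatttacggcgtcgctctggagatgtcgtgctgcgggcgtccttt
Atp5g1: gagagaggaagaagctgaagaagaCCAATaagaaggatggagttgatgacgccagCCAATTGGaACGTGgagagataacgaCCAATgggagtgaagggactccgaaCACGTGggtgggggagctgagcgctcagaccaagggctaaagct
Ndufv3 held GCGTG on both strands and 1 CCAAT, Cox5a held ACGTG and GCGTG once each, Atp5g1 held ACGTG 3 times, a pair of them overlapping as CACGTG, and CCAAT 4 times, and Ndufs5 held none of these. These are letter matches, not measured sites.

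Over the 65 members with a RefSeq window of these 150 bases, ACGTG was in 6 (9.23%) and GCGTG in 24 (36.9%), searched on both strands. The shares were 12.6% and 22.9% over the 27025 genes with a window, and 19.3% and 42.0% over the 3814 of them at 500 on an array. The motif of NRF1, a regulator of nuclear genes for respiratory subunits, is GCGCA joined directly to its reverse complement; it was in 3 members (Atp5g2, Atp5k and Ndufaf4; 4.62%), against 0.733% of all genes and 1.70% of genes at 500. CCGGAAG, an ETS motif bound by GABP, was in 11 (16.9%), against 6.33% and 15.7%, and CCAAT in 19 (29.2%), against 27.7% and 33.4%. AAGATGGCG, bound by YY1, was in 1 (Atp5j; 1.54%), against 0.440% and 1.36%.

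Complex I, the NADH dehydrogenase, had a median hypoxia change of -0.060 in tri-CH1 (20 of 33 subunits below 0) and -0.10 in wild-type cells (23 of 33); scaled to the same median signal, the tri-CH1 value turned to 0.0068. For this and the other complexes, the counts stand beside 53.5% of all genes below 0 in tri-CH1 and 56.7% in wild-type cells. Ndufv3, a small accessory subunit of the NADH-binding arm, had the highest change of all members in both genotypes. Its signal was 5175 in tri-CH1 hypoxia, 3594 in tri-CH1 normoxia, 3914.5 in wild-type hypoxia and 2771 in wild-type normoxia, so that each hypoxia array lay above its own normoxia array. The change was 0.53 in tri-CH1 and 0.50 in wild-type cells, just short of 1.5-fold in each, and it stayed between 0.42 and 0.59 under the other scalings in both. A single probe set reports this gene, so no other probe set bears on it.

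Ndufa10, an accessory subunit of the membrane arm, was next highest in tri-CH1 cells with Ndufs5. It had 1836.5 in tri-CH1 hypoxia, 1426.5 in tri-CH1 normoxia, 1679 in wild-type hypoxia and 1432 in wild-type normoxia, a change of 0.36 in tri-CH1 and 0.23 in wild-type cells. At the other end stood Ndufb8 and Ndufb10, accessory subunits of the proton-pumping membrane arm. Ndufb8 gave 1693 in tri-CH1 hypoxia, 2527 in tri-CH1 normoxia, 1578.5 in wild-type hypoxia and 1758 in wild-type normoxia, with the tri-CH1 normoxia array well above the other 3, and changes of -0.58 in tri-CH1 and -0.16 in wild-type cells. Ndufb10 gave 741 in tri-CH1 hypoxia, 950.5 in tri-CH1 normoxia, 739 in wild-type hypoxia and 1123 in wild-type normoxia, so both hypoxia arrays lay below both normoxia arrays, with changes of -0.36 in tri-CH1 and -0.60 in wild-type cells.

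Of the nuclear-encoded core subunits of complex I, which form its electron-transferring arm, 6 genes were members. Ndufs1 had 715 in tri-CH1 hypoxia, 892 in tri-CH1 normoxia, 715 in wild-type hypoxia and 913.5 in wild-type normoxia, each hypoxia array below its normoxia array, with changes of -0.32 in tri-CH1 and -0.35 in wild-type cells. Ndufv2 had 2412 in tri-CH1 hypoxia, 3045 in tri-CH1 normoxia, 2491.5 in wild-type hypoxia and 2639 in wild-type normoxia, with changes of -0.34 in tri-CH1 and -0.083 in wild-type cells. The FMN-binding Ndufv1 (-0.022 in tri-CH1 and 0.081 in wild-type cells) and Ndufs3 (-0.094 and -0.08) lay within 0.1 of 0 in both, although the 2 dimmer Ndufv1 probe sets at 500 gave -0.17 and -0.20 in wild-type cells. Ndufs7 and Ndufs8 were above 0 in tri-CH1 (0.10 and 0.25) and below 0 in wild-type cells (-0.20 and -0.17). For both, that order depends on the probe set. The other Ndufs7 probe set at 500 gave -0.57 in tri-CH1 and -0.52 in wild-type cells, and the 6 Ndufs8 probe sets at 500 ran from -0.37 to 0.25 in tri-CH1 and from -0.74 to 0.32 in wild-type cells.

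Complex II, succinate dehydrogenase, also serves the citric acid cycle, and 4 of its subunits were members. The catalytic subunits Sdha, which binds FAD, and Sdhb, which holds the iron-sulfur clusters, had changes of 0.12 and -0.18 in tri-CH1 and -0.009 and 0.0068 in wild-type cells. Their signals were 2363 in tri-CH1 hypoxia, 2179 in tri-CH1 normoxia, 2023 in wild-type hypoxia and 2035.5 in wild-type normoxia for Sdha, and 2573 in tri-CH1 hypoxia, 2912 in tri-CH1 normoxia, 2763 in wild-type hypoxia and 2749.7 in wild-type normoxia for Sdhb. The second Sdha probe set at 500 gave -0.30 in tri-CH1 and -0.44 in wild-type cells, so the tri-CH1 direction of Sdha depends on the probe set. Of the membrane anchors, Sdhc had 1871 in tri-CH1 hypoxia, 2099 in tri-CH1 normoxia, 1463 in wild-type hypoxia and 1531 in wild-type normoxia, below 0 in both genotypes by every probe set. Sdhd had 2255 in tri-CH1 hypoxia, 1904 in tri-CH1 normoxia, 1754 in wild-type hypoxia and 2163 in wild-type normoxia, which is 0.24 in tri-CH1 and -0.30 in wild-type cells. The change of Sdhd had opposite signs in the genotypes, within the spread seen between probe sets of a gene in tri-CH1 cells (SD 0.31) and just beyond it in wild-type cells (SD 0.26).

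Complex III, the cytochrome bc1 complex, had 7 of 8 subunits below 0 in tri-CH1 hypoxia, with a median of -0.23, and 6 of 8 in wild-type hypoxia, with a median of -0.099; both medians stayed below 0 under each of the 3 other scalings. Uqcrh, the hinge protein, was lowest in tri-CH1 and highest in wild-type cells, with 2160.2 in tri-CH1 hypoxia, 2795 in tri-CH1 normoxia, 2333.5 in wild-type hypoxia and 2248.5 in wild-type normoxia and changes of -0.37 in tri-CH1 and 0.054 in wild-type cells. The core proteins Uqcrc1 and Uqcrc2 had -0.25 and -0.28 in tri-CH1 and -0.11 and -0.091 in wild-type cells. The second Uqcrc2 probe set gave -0.52 and 0.020. Uqcrb, with 12318 in tri-CH1 hypoxia, 14273 in tri-CH1 normoxia, 10668.5 in wild-type hypoxia and 11117 in wild-type normoxia, was below 0 by both of its probe sets in both genotypes. The Rieske iron-sulfur protein Uqcrfs1 was the exception in tri-CH1 cells, at 0.062 there and -0.15 in wild-type cells. Cytochrome c1 (Cyc1) and cytochrome c (Cycs), whose symbols fall outside the prefixes, were lower in hypoxia too: Cycs had 4465 in tri-CH1 hypoxia, 6154 in tri-CH1 normoxia, 5904 in wild-type hypoxia and 7737 in wild-type normoxia, changes of -0.46 in tri-CH1 and -0.39 in wild-type cells, and Cyc1 changes of -0.23 in tri-CH1 and -0.27 in wild-type cells.

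Complex IV, cytochrome c oxidase, had 6 of 9 subunits below 0 in tri-CH1 hypoxia (median -0.093) and 4 of 9 in wild-type hypoxia (median 0.034, which turned to -0.042 with arrays scaled to the same median signal). Cox4i1, the general isoform of subunit 4, was level across the arrays at 6452.5 in tri-CH1 hypoxia, 6629 in tri-CH1 normoxia, 6580.4 in wild-type hypoxia and 6428 in wild-type normoxia. Its hypoxia-linked isoform Cox4i2 did not reach 500 and is not a member; it had 312 in tri-CH1 hypoxia, 205 in tri-CH1 normoxia, 332 in wild-type hypoxia and 184 in wild-type normoxia, so each hypoxia array was above its normoxia array, by 0.61 on the log2 scale in tri-CH1 and 0.73 in wild-type cells with signals under 200 raised to 200. These signals, from which background had been subtracted, are smaller than the scaled background itself on the tri-CH1 arrays (393 in hypoxia and 343 in normoxia) and larger than it on the wild-type arrays (246 in hypoxia and 139 in normoxia). The plot of signals shows Cox4i1 and Cox4i2 beside other genes.

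Cox5a, a nuclear-encoded subunit on the matrix side, had the lowest complex IV change in both genotypes. It had 5794 in tri-CH1 hypoxia, 7743 in tri-CH1 normoxia, 7358 in wild-type hypoxia and 9398 in wild-type normoxia, changes of -0.42 in tri-CH1 and -0.35 in wild-type cells, and all 3 of its probe sets were below 0 in both. Cox5b had 9708 in tri-CH1 hypoxia, 8984 in tri-CH1 normoxia, 8740.4 in wild-type hypoxia and 7606 in wild-type normoxia by its brightest probe set, 0.11 in tri-CH1 and 0.20 in wild-type cells, but its 3 other probe sets at 500 were below 0 in both genotypes. Cox6b1, on the intermembrane side, had 6711 in tri-CH1 hypoxia, 8131 in tri-CH1 normoxia, 7187 in wild-type hypoxia and 8417 in wild-type normoxia and both of its probe sets below 0 in both genotypes. Cox6a1 had 12008 in tri-CH1 hypoxia, 14757 in tri-CH1 normoxia, 13995 in wild-type hypoxia and 13329 in wild-type normoxia, -0.30 in tri-CH1 and 0.07 in wild-type cells, but its other probe set gave -0.042 and -0.24, which turns the wild-type sign. Cox7a2 had -0.093 in tri-CH1 and -0.10 in wild-type cells, by its brightest probe set. Cox6c had 0.032 in tri-CH1 and 0.097 in wild-type cells by the brightest probe set, and -0.33 and -0.40 by the other at 500.

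The muscle or heart isoforms Cox6a2, Cox7a1 and Cox8b, and the testis isoform Cox6b2, stayed under 500 on all arrays, with highest signals of 220.0, 77.8, 62.8 and 184.7 in that order. The skeletal and cardiac muscle markers were likewise low, with 7 of 10 under 200 on every array. Cox8c, a further isoform of subunit 8 best known from testis, did reach 500. It had 687 in tri-CH1 hypoxia, 914 in tri-CH1 normoxia, 787 in wild-type hypoxia and 603 in wild-type normoxia, which is -0.41 in tri-CH1 and 0.38 in wild-type cells, the largest difference between the genotypes' hypoxia changes in the negative direction (-0.80). The general isoform Cox8a ran the other way by its brightest probe set, with 4571 in tri-CH1 hypoxia, 3989 in tri-CH1 normoxia, 3121 in wild-type hypoxia and 3939 in wild-type normoxia, or 0.20 in tri-CH1 and -0.34 in wild-type cells. Its second probe set gave -0.11 in tri-CH1 and 0.23 in wild-type cells, so the direction for Cox8a depends on the probe set. Cox7c, whose probe sets reached at most 135, is not a member.

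**Figure D2:**
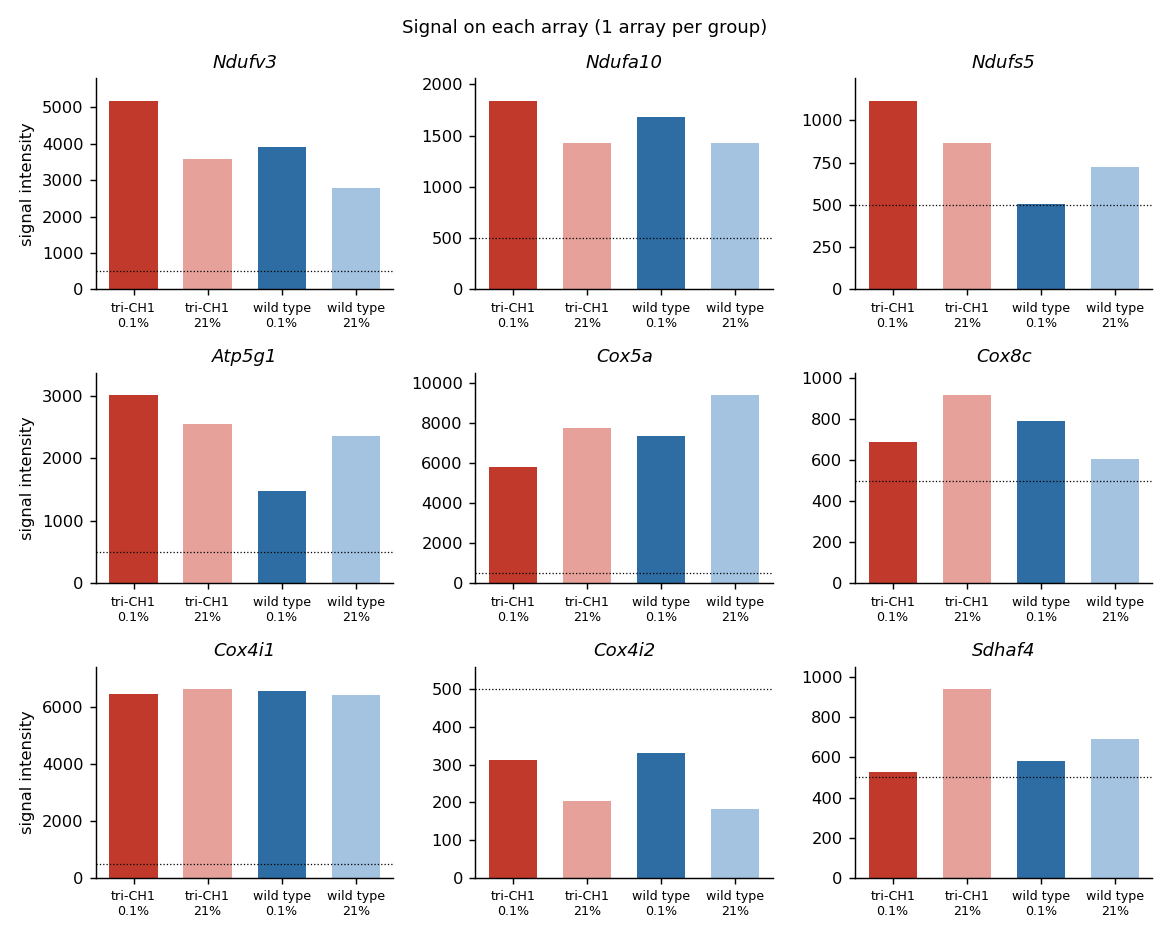
Bars give the signal (scaled intensity, linear axis from 0) on each of the 4 arrays, with tri-CH1 left of wild type and 0.1% left of 21% oxygen, for the genes named above the panels, and the dotted line marks 500. Cox4i1 is level across the arrays, while Cox4i2 stays under 500 and is higher on each hypoxia array than on its normoxia array.

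Complex V had 11 of 17 subunits below 0 in tri-CH1 hypoxia (median -0.096) and 16 of 17 in wild-type hypoxia (median -0.18). Under the 3 other scalings the counts ran from 10 to 12 in tri-CH1 and from 15 to 16 in wild-type hypoxia. Both complex V medians stayed below 0 under each of them. The small subunits of its membrane part were below 0 by their brightest probe sets, 5 of 5 in tri-CH1 and 5 of 5 in wild-type cells, with medians of -0.31 in tri-CH1 and -0.18 in wild-type cells, and this count held under each other scaling. A dimmer probe set at 500 lay above 0 in tri-CH1 for Atp5j2 (0.014) and Atp5k (0.068). Atp5l, subunit g of the membrane part, had 2364 in tri-CH1 hypoxia, 3139 in tri-CH1 normoxia, 2962 in wild-type hypoxia and 3385 in wild-type normoxia, each hypoxia array below its normoxia array. Atp5mpl had 2956 in tri-CH1 hypoxia, 3933 in tri-CH1 normoxia, 2418.5 in wild-type hypoxia and 2649.6 in wild-type normoxia and changes of -0.41 in tri-CH1 and -0.13 in wild-type cells. Atp5md, which takes part in pairing ATP synthases into dimers, had 1332 in tri-CH1 hypoxia, 1649 in tri-CH1 normoxia, 1301 in wild-type hypoxia and 2049.6 in wild-type normoxia, -0.31 in tri-CH1 and -0.66 in wild-type cells, with the wild-type normoxia array the highest of the 4. The other members of the group, Atp5j2 and Atp5k, lay between -0.30 and -0.17 in both genotypes by the brightest probe set.

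In the catalytic F1 part the changes were mixed. Atp5a1, subunit α, had 8592 in tri-CH1 hypoxia, 7746 in tri-CH1 normoxia, 6754 in wild-type hypoxia and 6767.5 in wild-type normoxia, and Atp5b, the catalytic subunit β, had 7454.5 in tri-CH1 hypoxia, 7114 in tri-CH1 normoxia, 9052 in wild-type hypoxia and 9791 in wild-type normoxia. Their changes were 0.15 and 0.067 in tri-CH1 and -0.0028 and -0.11 in wild-type cells. Atp5c1, the rotor subunit γ, was the only complex V gene above 0 in wild-type cells by the brightest probe set (0.22, against -0.068 in tri-CH1). The second Atp5a1 probe set at 500 gave 0.087 in wild-type cells. The peripheral stalk, which holds F1 still, had 2 of 4 genes below 0 in tri-CH1 and 4 of 4 in wild-type cells by their brightest probe sets. The tri-CH1 count depends on the probe set. Atp5o (0.060) and Atp5pb (0.11) were above 0 there, and their other probe sets at 500 gave -0.19 and -0.081. Atp5h, also of the stalk, had 3460.2 in tri-CH1 hypoxia, 4673 in tri-CH1 normoxia, 3819 in wild-type hypoxia and 4870.4 in wild-type normoxia. Its changes were -0.43 in tri-CH1 and -0.35 in wild-type cells, with both probe sets below 0 in both.

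Atp5g1, Atp5g2 and Atp5g3 encode the same mature c subunit of the proton-driven ring with different import sequences, and their changes differed. Atp5g3 had 10181 in tri-CH1 hypoxia, 13392 in tri-CH1 normoxia, 9427 in wild-type hypoxia and 11154 in wild-type normoxia, -0.40 in tri-CH1 and -0.24 in wild-type cells. Atp5g2 was nearly level in tri-CH1 cells (-0.0042) and -0.16 in wild-type cells. Atp5g1 had 3004 in tri-CH1 hypoxia, 2549 in tri-CH1 normoxia, 1482 in wild-type hypoxia and 2346 in wild-type normoxia, which puts the wild-type hypoxia array well below the other 3. Its hypoxia change was 0.24 in tri-CH1 and -0.66 in wild-type cells, and the difference of 0.90 was the largest positive one among the members.

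The 6 factors included the lowest hypoxia changes in tri-CH1 cells. Sdhaf4, which helps put together the flavoprotein side of complex II, had 525 in tri-CH1 hypoxia, 939 in tri-CH1 normoxia, 583 in wild-type hypoxia and 689.9 in wild-type normoxia, a change of -0.84 in tri-CH1 and -0.24 in wild-type cells. Ndufaf4, a complex I assembly factor, had 333 in tri-CH1 hypoxia, 541 in tri-CH1 normoxia, 439.6 in wild-type hypoxia and 571 in wild-type normoxia. Its changes were -0.70 in tri-CH1 and -0.38 in wild-type cells. These signals are close to the limit of 500, which only the normoxia arrays reached, so Ndufaf4 is a member through the arrays where it is high. Cox7a2l, a factor in the joining of complexes III and IV into supercomplexes, had 0.22 in tri-CH1 and 0.21 in wild-type cells by its brightest probe set, while the 3 at 500 ran from -0.092 to 0.22 in tri-CH1 and from 0.17 to 0.27 in wild-type cells. Ndufaf1 had 0.28 and -0.054. A further list outside the prefixes held assembly factors, Coq genes of ubiquinone synthesis and the mitochondrial RNA factors Lrpprc and Fastkd2. Of its 34 genes on the array, 19 reached 500. Of these, 15 were below 0 in tri-CH1 (median -0.29) and 17 in wild-type cells (median -0.31), against 53.5% and 56.7% of all genes. Coa6 was the lowest of them in tri-CH1 (-1.27, against -0.38 in wild-type cells) and Lrpprc the highest (1.10, against -0.26). Coa6 had 335 in tri-CH1 hypoxia, under the scaled background of 393 there, and 808 in tri-CH1 normoxia. Lrpprc had 614 in tri-CH1 hypoxia, the only array where it reached 500. Its 287 in tri-CH1 normoxia was under the scaled background of 343 there.

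Agreement between probe sets was used to see which small changes rest on more than 1 measurement. Of the 77 genes, 37 had 2 or more probe sets at 500. All probe sets lay below 0 for 17 of the 37 in tri-CH1 and 23 of the 37 in wild-type cells, while all lay above 0 for 1 in each. Among all 1505 genes with several such probe sets, all lay below 0 for 30.4% in tri-CH1 and 37.4% in wild-type cells, and all lay above 0 for 30.2% and 28.3%. Every probe set was below 0 in both genotypes for 12 members (Ndufa3, Ndufa12, Ndufb2, Ndufb5, Ndufc1, Ndufv2, Sdhc, Uqcrb, Cox5a, Cox6b1, Cox7a2 and Atp5h) and above 0 in both for 0, against 17.9% and 17.2% of those genes. With arrays scaled to the same median signal, 10 of the 12 stayed so, without Cox6b1 and Cox7a2; with cyclic loess 11 did, without Ndufv2, and with quantile normalization all 12. Probe sets of a gene share the RNA and the array, so their agreement says nothing of other cultures.

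**Figure D3:**
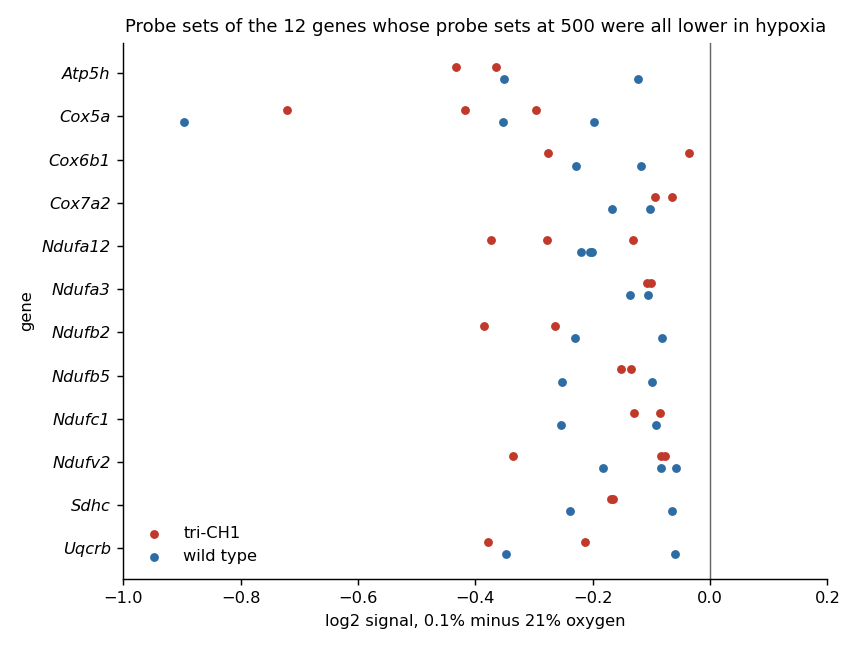
Each point is 1 probe set at 500 of the 12 genes whose probe sets were all below 0 in both genotypes, with the gene on the y axis and the log2 change, hypoxia minus normoxia, on the x axis, tri-CH1 above wild type. All points lie below 0, and a Cox5a probe set is the lowest in each genotype.

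Set side by side, the genotypes' hypoxia changes shared no array. Of the 77 members, 38 (49.4%) were below 0 in both, against 38.2% of all genes, and 9 (11.7%) were above 0 in both, against 27.5%. A further 12 were below 0 in tri-CH1 only and 18 in wild-type cells only, against 15% and 18.3% of all genes. Across the 77 genes, which share the arrays and are not replicates, Pearson's r between the changes was 0.16 and Spearman's rho 0.14, where over all 4645 genes they were 0.61 and 0.44. The median difference, tri-CH1 minus wild type, was 0.0098 for the members and 0.028 for all genes. It was 1.5-fold or more for 4 members, above 0 for 2 (Ndufs5 and Atp5g1) and below 0 for 2 (Cox8c and Sdhaf4), against 7.94% and 6.59% of all genes.

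**Figure D4:**
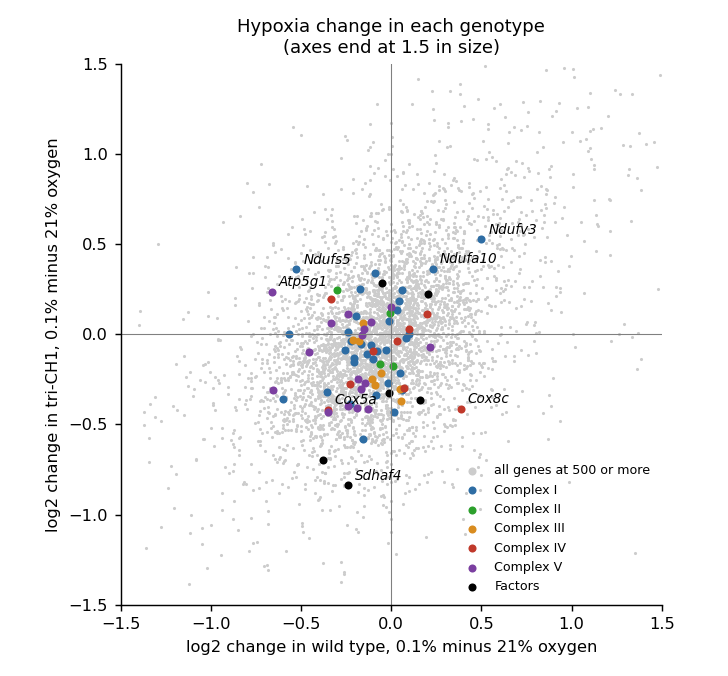
Each coloured point is 1 member, with the wild-type hypoxia change (log2) on the x axis and the tri-CH1 change on the y axis, over all genes at 500 in gray, and axes end at 1.5 in size. The lower left of 0 holds 38 of the 77 members, Ndufv3 is the farthest to the upper right, and Ndufs5 and Atp5g1 lie at the upper left.

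Between the genotypes the differences were small, and 33 of 77 members (42.9%) were higher in tri-CH1 at both oxygen levels, 15 (19.5%) lower at both, against 39.7% and 30.8% of all genes. At 0.1% oxygen 47 of 77 were higher in tri-CH1 and the median log2 difference, tri-CH1 minus wild type, was 0.093, against 0.051 for all genes, of which 44.5% were below 0. At 21% oxygen 48 of 77 were higher with a median of 0.070, against 0.030 for all genes, of which 46.4% were below 0. With arrays scaled to the same median signal the median turned to -0.15, with 20 of 77 higher, as that scaling moved the median of all genes to -0.20. The direction of the shift at 21% oxygen thus depends on the scaling. At 0.1% oxygen it stayed above 0, at 0.015, with 39 of 77 higher. The excess over all genes was not stable either. With the mean over probe sets at 500, the member median at 0.1% oxygen was 0.036 against 0.044 for all genes. With a minimum signal of 250 it was 0.058 against 0.052 at 0.1% oxygen and 0.076 against 0.077 at 21% oxygen. Fibroblast markers also differed by genotype: of the 10, 2 were 2-fold or more higher (Lum and Col1a1) and 1 lower (Thy1) in tri-CH1 at 0.1% oxygen, and of 9 counted at 21%, Lum was higher and Thy1 lower. Lum differed by 2.68 at 0.1% and 2.14 at 21% oxygen, and Thy1 by -1.92 and -1.78. The summed fibroblast signal was 151614 in tri-CH1 hypoxia, 157684 in tri-CH1 normoxia, 142070 in wild-type hypoxia and 145510 in wild-type normoxia. The part of these markers in the genotype values was not tested. Over all genes, the lowest genotype difference at 0.1% oxygen was that of Xist, the RNA of X inactivation (-3.75). The sample labels used here give no sex of the embryos. Sex and genotype could thus not be told apart, and the part of sex in the genotype values was not tested. The members Ndufa1 and Ndufb11 are on the X chromosome.

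At 0.1% oxygen, 2 of 75 counted members were 2-fold or more higher in tri-CH1 and 0 were lower, against 3.76% and 3.31% of all genes counted. At 1.5-fold the member counts were again 2 higher and 0 lower, against 10.9% and 8.88%. At 21% oxygen, 0 of 77 were 2-fold higher and 0 lower, against 3.16% and 3.48%. At 1.5-fold, 3 were higher (Ndufaf3, Sdhaf2 and Cox8c) and 1 lower (Ndufb6) in tri-CH1, against 10.2% and 9.51%.

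**Figure D5:**
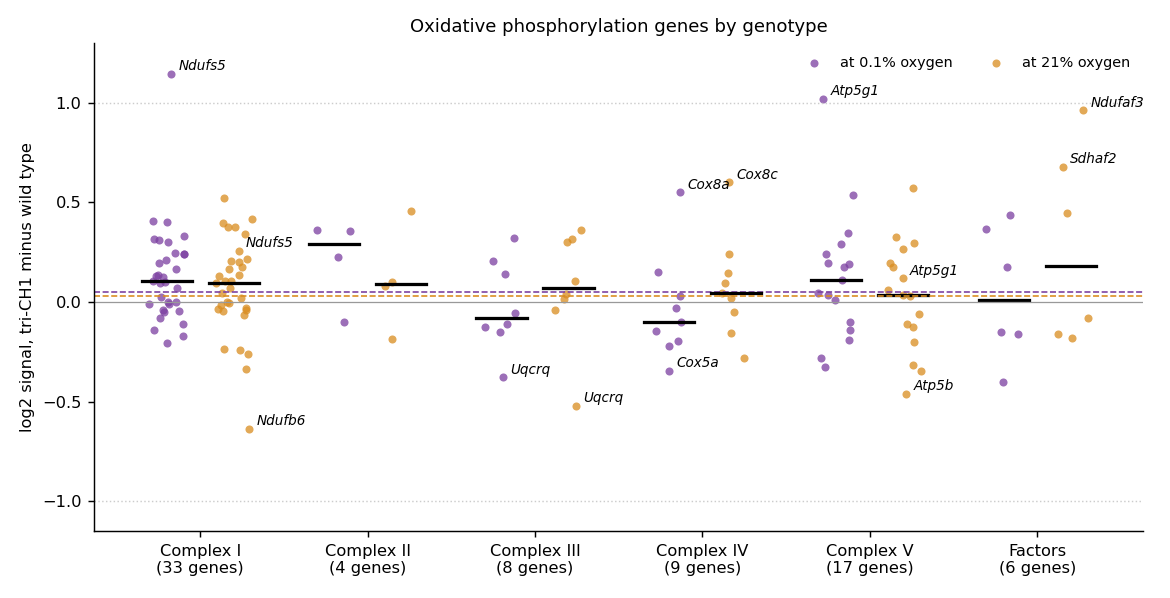
Each point is 1 of the 77 genes, by complex on the x axis, with its log2 difference, tri-CH1 minus wild type, on the y axis, at 0.1% oxygen left of 21% oxygen, and a bar at the median of each set; dashed lines give the median of all genes and dotted lines mark 2-fold. Only Ndufs5 and Atp5g1 pass 1 (2-fold), both at 0.1% oxygen.

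The 2 genes past 2-fold were Ndufs5 and Atp5g1. Ndufs5, an accessory subunit of complex I that stays on the intermembrane side, had 1114 in tri-CH1 hypoxia, 867 in tri-CH1 normoxia, 504 in wild-type hypoxia and 726 in wild-type normoxia. Tri-CH1 was higher by 1.14 (2.21-fold) at 0.1% oxygen and by 0.26 at 21% oxygen, and the hypoxia change was 0.36 in tri-CH1 and -0.53 in wild-type cells. A probe set that Ndufs5 shares with a pseudogene did not show this: it had 643 in tri-CH1 hypoxia, 732 in tri-CH1 normoxia, 501 in wild-type hypoxia and 561 in wild-type normoxia, which is 0.36 at 0.1% and 0.38 at 21% oxygen for tri-CH1 minus wild type. Atp5g1, with the signals given above, was higher in tri-CH1 by 1.02 (2.03-fold) at 0.1% oxygen and by 0.12 at 21% oxygen. With arrays scaled to the same median signal these values became 0.94 and -0.10, so the direction at 21% oxygen depends on the scaling. Atp5g1 has a single probe set. For both genes the wild-type hypoxia array is the low one and enters both the genotype and the wild-type hypoxia comparison.

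Of the genes past 1.5-fold at 21% oxygen, Ndufaf3 and Sdhaf2 are factors. Ndufaf3, a complex I assembly factor, had 390.1 in tri-CH1 hypoxia, 503 in tri-CH1 normoxia, 288 in wild-type hypoxia and 258 in wild-type normoxia. It was higher in tri-CH1 by 0.44 at 0.1% and 0.96 at 21% oxygen, with signals near the limit. Only its tri-CH1 normoxia array reached 500, so it is a member through the array where it is high. Sdhaf2, which attaches FAD to Sdha, had 1552 in tri-CH1 hypoxia, 1946 in tri-CH1 normoxia, 1206 in wild-type hypoxia and 1216 in wild-type normoxia, so both tri-CH1 arrays lay above both wild-type arrays, by 0.36 at 0.1% and 0.68 at 21% oxygen. Ndufb6, an accessory membrane-arm subunit of complex I, had 2026 in tri-CH1 hypoxia, 1598.5 in tri-CH1 normoxia, 2333.5 in wild-type hypoxia and 2483 in wild-type normoxia, with both tri-CH1 arrays below both wild-type arrays. Its second probe set gave the same order, with genotype differences of -0.55 at 0.1% and -0.45 at 21% oxygen, though its hypoxia change in tri-CH1 was -0.49 by that probe set and 0.34 by the brighter. Ndufc2 was near 0 by its brighter probe set (-0.0078 and -0.063) and -0.75 and -1.06 by the other.

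By complex, the median genotype differences at 0.1% and 21% oxygen were 0.11 and 0.094 for complex I, 0.29 and 0.091 for complex II, -0.082 and 0.073 for complex III, -0.099 and 0.044 for complex IV and 0.11 and 0.033 for complex V; all 5 values at 21% oxygen turned negative with arrays scaled to the same median signal, and the complex IV value at 0.1% oxygen turned to 0.0040 with quantile normalization. Sdha was higher in tri-CH1 at both levels by both probe sets. Sdhc differed by 0.35 at 0.1% and 0.46 at 21% by its brighter probe set and by -0.16 and -0.22 by the other, so its direction depends on the probe set. Of the 37 members with several probe sets at 500, all were above 0 for 10 at 0.1% and 12 at 21% oxygen, against 29.3% and 24.5% of the 1505 genes, and all were below 0 for 7 at each level, against 32.6% and 34%. Every probe set was above 0 at both oxygen levels for 6 members (Ndufa3, Ndufb7, Ndufb11, Sdha, Cox8a and Atp5a1) and below 0 at both for 4 (Ndufb6, Ndufc2, Cox5a and Cox7a2), against 15.5% and 20.5% of the 1505 genes. These probe-set counts were not repeated under the other scalings. At 21% oxygen the lowest probe-set values of the 6 ran from 0.018 (Cox8a) to 0.22 (Ndufb7). Scaling to the same median signal moved the all-gene median there from 0.030 to -0.20, so the 6 depend on the scaling. Uqcrq, a small subunit of complex III, was lower in tri-CH1 by its single probe set at 500, with 1965 in tri-CH1 hypoxia, 2015 in tri-CH1 normoxia, 2552 in wild-type hypoxia and 2888 in wild-type normoxia, and Atp5b had the lowest complex V difference at 21% oxygen (-0.46, against -0.28 at 0.1%). Cycs was likewise lower in tri-CH1, with log2 differences of -0.40 at 0.1% and -0.33 at 21% oxygen.

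Other mitochondrial lists and genes place these small changes. Mitochondrial ribosomal proteins, which translate the subunits encoded in the organelle, had medians of -0.22 in tri-CH1 and -0.23 in wild-type cells, with 52 of 65 below 0 in each. The enzymes of the citric acid cycle had -0.29 with 12 of 15 below 0 in tri-CH1, and -0.20 with 10 of 15 in wild-type cells. Of all genes, 53.5% were below 0 in tri-CH1 and 56.7% in wild-type cells. Both lists lay lower than the respiratory members in both genotypes, a difference for which no test was possible. Cytosolic ribosomal proteins lay at -0.13 in tri-CH1 and 0.052 in wild-type cells. Among 12 genes at 500 listed for a link to hypoxia and respiration, 6 rose 2-fold or more in each genotype and 0 fell. Over all genes, 3.19% in tri-CH1 and 3.05% in wild-type cells rose. The 12 were listed for that link, with earlier results of these data known, so their count is not a test. The 6 were Bnip3, Egln1, Egln3, Higd1a, Mxi1 and Pdk1. Of these, only Higd1a reached 500 in normoxia. The others reached 500 only on the hypoxia arrays, where they are high, which is a further reason that the count is not a test. Pdk1, the kinase that shuts off pyruvate dehydrogenase, had 1887 in tri-CH1 hypoxia, 220.2 in tri-CH1 normoxia, 1538.5 in wild-type hypoxia and 186 in wild-type normoxia. Higd1a, a small inner-membrane protein that binds respiratory complexes, had 7806 in tri-CH1 hypoxia, 1386 in tri-CH1 normoxia, 8312 in wild-type hypoxia and 1653 in wild-type normoxia. At 1.5-fold, 2 of the 12 were lower in wild-type hypoxia, Iscu (-0.73, against -0.45 in tri-CH1) and Chchd4 (-0.67, against -0.32). Of all genes counted, 6.81% were lower at that limit. Lonp1, the matrix protease that degrades Cox4i1 in hypoxia in cultured cells, was higher by 0.60 in tri-CH1 and 0.59 in wild-type cells.

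Not every subunit could be read. No probe set used here carried the symbol Ndufa4l2, the hypoxia-linked paralogue of Ndufa4. Ndufa4 itself, named for complex I and counted there by its symbol but now placed in complex IV, had 3921 in tri-CH1 hypoxia, 4853 in tri-CH1 normoxia, 4411.5 in wild-type hypoxia and 4227 in wild-type normoxia, -0.31 in tri-CH1 and 0.062 in wild-type cells. Ndufa11, Ndufb4 and Ndufs6 were read by probe sets with several symbols and stayed outside the members. Their hypoxia changes by the brightest such probe set were -0.37, -0.39 and -0.46 in tri-CH1 and -0.32, -0.51 and 0.049 in wild-type cells, in that order. Ndufb1 was just short of the limit, with 359 in tri-CH1 hypoxia, 447 in tri-CH1 normoxia, 489.7 in wild-type hypoxia and 479.5 in wild-type normoxia.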

How the data were processed

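Per the labels, the authors deposited 1 signal intensity per probe set for each of 4 arrays, on a linear scale, computed with the Affymetrix statistical algorithm and multiplied by 1 scale factor per array to a target of 500. Which software was run, and its version, is not given in the sources used here. Of 22690 probe sets, 20380 carry 1 gene symbol in the platform annotation and were used; each gene took its brightest probe set. Signals under 200 were raised to 200 and log2 differences taken. A gene counted in a comparison if its brighter array reached 500, and counts are given at 2-fold and 1.5-fold. With 1 array per group no test was run; the number of arrays limits the precision. The spread between a gene's 2 probe sets at 500 (SD of log2 changes) covers error between probe sets only. The fold rule was run on simulated arrays with known changes and the same noise on each array. The simulation held no differences in scale factor, lot or background, so it does not check the counts for these arrays.

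The members and the gene lists were chosen with earlier results of these data known. Named with their signals were members past 2-fold, the highest and lowest changes, the largest differences in response, isoform pairs, complex II and the complex I core. Ndufb9, Ndufab1 and other members not described singly are in the counts. Promoter windows and their coordinates are RefSeq's (GRCm38.p6), and all 77 members matched the gene table. Alternatives were floors of 100, 400 and none, minimum signals of 250 and 1000, other scalings and other probe-set choices. Added after seeing the data were subunits alone, 3 subunits from probe sets with several symbols, and the shared Ndufs5 probe set. Calculations used Python 3.11.15, numpy 2.4.6 and pandas 2.3.3, with limma 3.58.1 under R 4.3.3 for the normalizations and matplotlib 3.10.9 for the figures. Ep300 was not analysed here.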

Additional observations from a re-analysis of the deposited data

Results flagged for a closer look

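Cox8c and Ndufs5 had hypoxia changes that ran in opposite directions in the genotypes, each beyond the SD between probe sets of a gene. Cox8c had -0.41 in tri-CH1 and 0.38 in wild-type cells on the log2 scale, and Ndufs5 had 0.36 in tri-CH1 and -0.53 in wild-type cells. With 1 array per group the difference was not tested for either gene. Each rests on a single probe set at 500 with 1 symbol, and the probe set that Ndufs5 shares with a pseudogene gave -0.19 in tri-CH1 and -0.16 in wild-type cells.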

How the results depend on the processing

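The median hypoxia change of the members stayed below 0 in both genotypes under each alternative, from -0.14 to -0.027 in tri-CH1 and from -0.19 to -0.089 in wild-type cells. Scaling the arrays to the same median moved the median difference between the genotypes' hypoxia changes to 0.15 and turned the median genotype difference at 21% oxygen to -0.15. Counts moved as follows; the minimum signals, subunits alone and plain _at probe sets change which genes enter, and for the scalings the cause was not tested. Members 1.5-fold higher in hypoxia numbered 1 in tri-CH1 with a minimum of 250 or with median scaling, and 1 in wild-type cells with a minimum of 250. Members 1.5-fold lower in tri-CH1 hypoxia numbered 4 with a minimum of 250 or with plain _at probe sets, 1 with a floor of 400, and 0 with a minimum of 1000 or with subunits alone; in wild-type hypoxia median scaling gave 5. At 0.1% oxygen, median scaling or plain _at probe sets left 1 member 2-fold higher in tri-CH1, and plain _at probe sets gave 1 that was 1.5-fold lower. At 21% oxygen, 1.5-fold higher members numbered 1 with a minimum of 1000 or subunits alone and 0 with median scaling. Lower members there numbered 3 with median scaling, 2 with plain _at probe sets (1 of them 2-fold lower), and 0 with quantile normalization, cyclic loess or the mean over probe sets. The difference in response of Ndufs5 reversed to -0.024 by the probe set shared with a pseudogene; the cause was not tested. Of the other single-gene and per-complex values, 717 stayed within their limits and 33 moved beyond. The signal over background limits Cox4i2, Coa6, Lrpprc, Ndufaf3 and Ndufaf4, and 1 array per group limits all values. No paired analysis was possible because each group holds 1 array and the labels give no replicate numbers.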
